A study of Mus musculus with 12 samples.

Results

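The collagen genes of the dorsal root ganglion (DRG) were examined in mice with Nf2-deficient Schwann cells that either kept or lost Fak. A gene was taken as a collagen gene when its symbol had the form Col, a number, the letter a and a number, which 44 of the 49315 genes in the deposited count table met. The 44 genes encode collagen chains of 8 structural classes: 11 fibrillar, 6 basement membrane, 9 FACIT (chains that sit on the surface of fibrils), 6 beaded filament, 2 multiplexin, 4 network and anchoring, 4 transmembrane and 2 other chains. All 44 were annotated as protein coding in GENCODE M21 on GRCm38.

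Bulk poly(A) RNA sequencing was performed on DRG of 12 mice aged 10 months, with 8 ganglia dissected per mouse and 1 library per mouse. The 6 Nf2 mice had the genotype Postn-Cre(+);Nf2 flox/flox and the 6 DKO mice carried Fak1 flox/flox in addition, where Fak1 is the gene annotated as Ptk2. Each genotype had 3 mice labelled male and 3 labelled female. Postn-Cre recombines floxed alleles in Schwann cells and their precursors, so both genotypes lack Nf2 in that lineage and cells that never expressed the Cre keep it. No wild-type group entered the comparison.

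Collagens are trimers of chains that wind into a triple helix. Types I, III and V form the fibrils of the endoneurium, perineurium and epineurium. Type IV forms the sheet of the basal lamina that surrounds each Schwann cell and vessel, and type VI forms beaded filaments between fibrils and basal laminae. In nerve, fibroblasts are known for types I and III, whereas Schwann cells deposit types IV and V, and onion bulbs in chronically injured nerve are layered from Schwann cell processes and collagen.

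Total counts ranged from 21129191 to 41250329 per mouse, and the 44 collagen genes together took 0.217% to 0.435% of them. Ptk2 had a mean of 70.0 CPM (SD 3.60) in the 6 Nf2 mice and of 64.0 CPM (SD 10.4) in the 6 DKO mice, where CPM are counts scaled to a library total of 1000000, and counts over whole genes do not resolve the floxed part. Mouse 702, labelled male, had a female pattern, with 496 CPM of Xist and 0.525 CPM of Ddx3y, where the other mice labelled male had 0.364 to 6.17 and 76.0 to 86.3 CPM. The tests by sex are therefore also given without mouse 702. DKO mouse 886 had the lowest summed collagen level, 2166 CPM, where the other 11 mice had 3110 to 4349 CPM. Markers of sensory neurons, Schwann cells and satellite glia were present at summed levels of at least 5117 CPM in every mouse, so the libraries carried the markers of the labelled tissue.

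The sequences just before the start site are shown for genes on which the results turn. Col11a1 is the collagen gene that passed the threshold between genotypes, Col3a1 is the fibrillar gene with the highest mean level per kilobase of exon over all 12 mice, Col23a1 is the gene with the smallest p among those higher in DKO mice, and Col4a4 and Col4a3 share the 71 bases between their divergent starts. Of the 44 genes, 35 had a promoter entry in RefSeq (GRCm38.p6). The letters searched, on both strands of the 250 bases before the start, were those of 4 motifs. The TATA box was read as TATAAA. The CCAAT box was searched under its own letters. For the GC box GGGCGG was looked up. The TEAD factors, partners of Yap and Taz, were given GGAATG. Each motif was counted on its own even where matches overlapped. Capitals mark these letters or their reverse complement. The first 3 sequences end at the base before the annotated start and the last runs from Col4a3 towards Col4a4. Only the last 120 of the 250 bases searched are printed for the first 3. Counted matches can therefore lie outside the printed bases, as the TEAD letters of Col3a1 do.
Col11a1, chr3:114030420-114030539, plus strand: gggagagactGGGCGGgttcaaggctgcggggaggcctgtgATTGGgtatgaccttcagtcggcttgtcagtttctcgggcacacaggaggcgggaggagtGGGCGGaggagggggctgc
Col3a1, chr1:45311418-45311537, plus strand: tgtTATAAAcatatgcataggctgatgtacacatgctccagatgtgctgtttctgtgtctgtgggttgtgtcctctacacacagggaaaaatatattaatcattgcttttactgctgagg
Col23a1, chr11:51289800-51289919, plus strand: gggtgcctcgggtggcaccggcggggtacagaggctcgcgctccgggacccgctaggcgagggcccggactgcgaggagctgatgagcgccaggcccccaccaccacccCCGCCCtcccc
Between Col4a4 and Col4a3, chr1:82586850-82586920, minus strand: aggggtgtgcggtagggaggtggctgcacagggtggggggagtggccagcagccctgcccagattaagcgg
The GC box letters were present in 21 of the 35 collagen genes with an entry, where 32.7% of 32851 promoter windows of the same length held them. Those 35 genes had 38 windows, and a gene was counted when any of its windows held the letters. The CCAAT letters were present in 13, against 33.8% of all windows. The TATA letters were present in 5, against 12.4%, and the TEAD letters in 4 (Col18a1, Col20a1, Col3a1 and Col6a2), against 12.6%. A match is a description of the letters and not of a bound site.

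Levels were compared between genes as CPM per kilobase of exon, since long genes collect more counts. Col16a1, a FACIT chain, had the highest mean level over the 12 mice (44.5 CPM per kb), followed by the fibrillar chains Col3a1 (43.97), Col1a2 (43.2) and Col1a1 (40.5). This order depends on the length used, the union of all annotated exons, which was 6750 bases for Col16a1 and 12426 for Col1a2. In plain CPM the means of Col1a2 (537) and Col3a1 (432) were above that of Col16a1 (300), and that of Col1a1 (266) was below it. The order of the means per kb also differed between genotypes, with no test of the order. In Nf2 mice Col3a1 was first at 51.9 ± 6.11 CPM per kb and Col16a1 the fourth at 39.8 ± 5.40, whereas in DKO mice Col16a1 was first at 49.2 ± 13.4 and Col3a1 was at 36.0 ± 11.7 CPM per kb (mean ± SD, n = 6). Next came Col28a1, a collagen with von Willebrand factor A domains known from peripheral nerve, at 33.3 CPM per kb, and the basement membrane chain Col4a1 at 30.5 CPM per kb. The lowest were Col9a1 (0.0390 CPM per kb), a chain of cartilage type IX collagen, and Col17a1 (0.0503 CPM per kb), the transmembrane collagen of epithelial hemidesmosomes. With 2 to 13 and 2 to 18 counts per mouse, these 2 genes did not pass the filter on low counts, and the other 42 were tested.

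**Figure D1:**
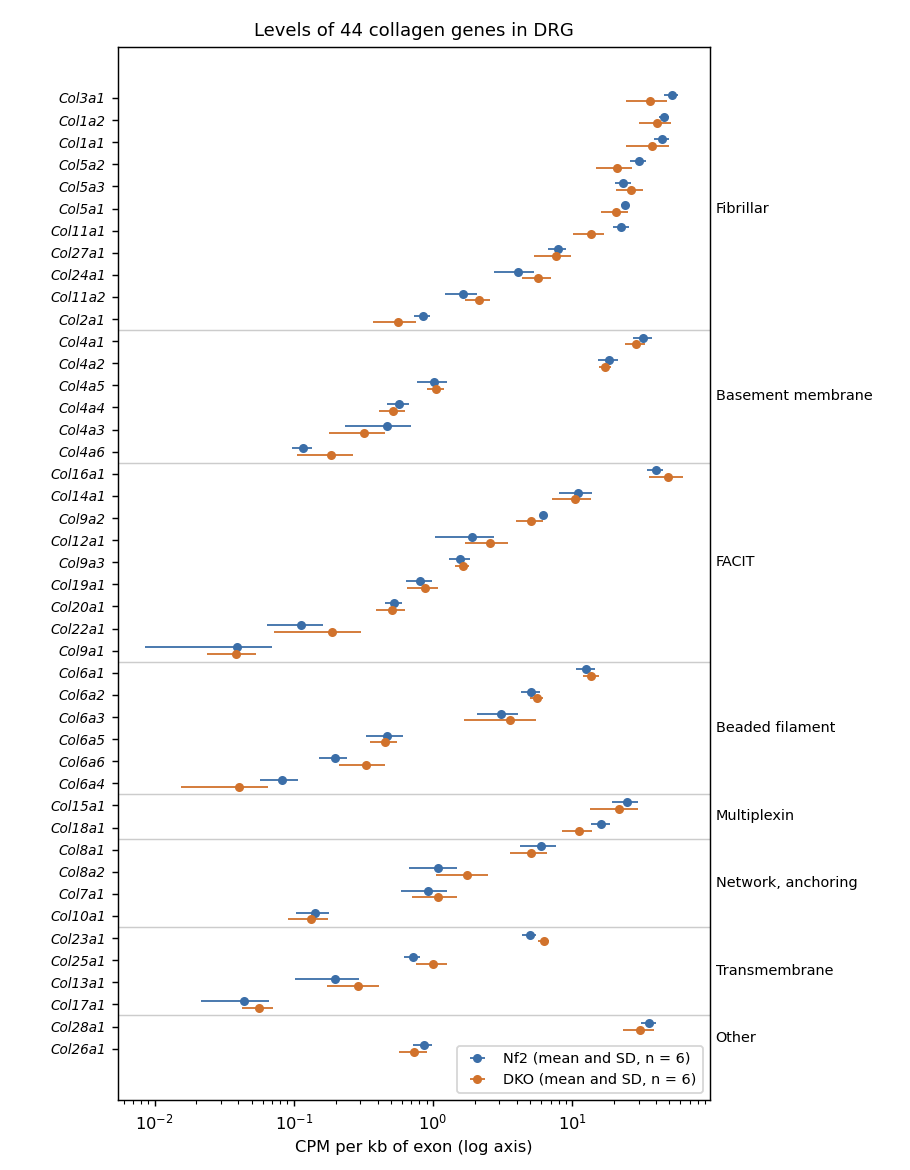
Levels of the 44 collagen genes by class, as mean and SD of CPM per kb of exon on a log axis for 6 Nf2 and 6 DKO mice. Levels span from 0.0390 CPM per kb for Col9a1 to 44.5 CPM per kb for Col16a1, and both genotypes are close to each other for most genes.

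The comparison of DKO with Nf2 mice asked which collagen genes differed with loss of Fak. Of the 42 tested collagen genes, 1, Col11a1, passed an adjusted p of 0.05 in edgeR's quasi-likelihood test and was lower in DKO mice. The background was 0.94% of 18295 genes tested, or 0.568% for genes lower in DKO mice. At an unadjusted p under 0.05, 12 collagen genes were counted, 7 lower and 5 higher in DKO mice, where 14.9% of all genes met this mark, 7.96% lower and 6.91% higher. The median log2 fold change of the collagen genes was -0.07, that of all genes was 0.0047, and 23 of 42 collagen genes had a negative value, as did 49.0% of all genes. DESeq2's Wald test called 5 collagen genes, against 4.54% of all genes, and limma voom called 2, against 2.85%. Without mouse 886 the median of the collagen genes was 0.02. In bulk tissue, fewer cells of a type and less RNA per cell cannot be told apart, and mice are labelled as separate animals, so the p-values measure the spread between animals.

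**Figure D2:**
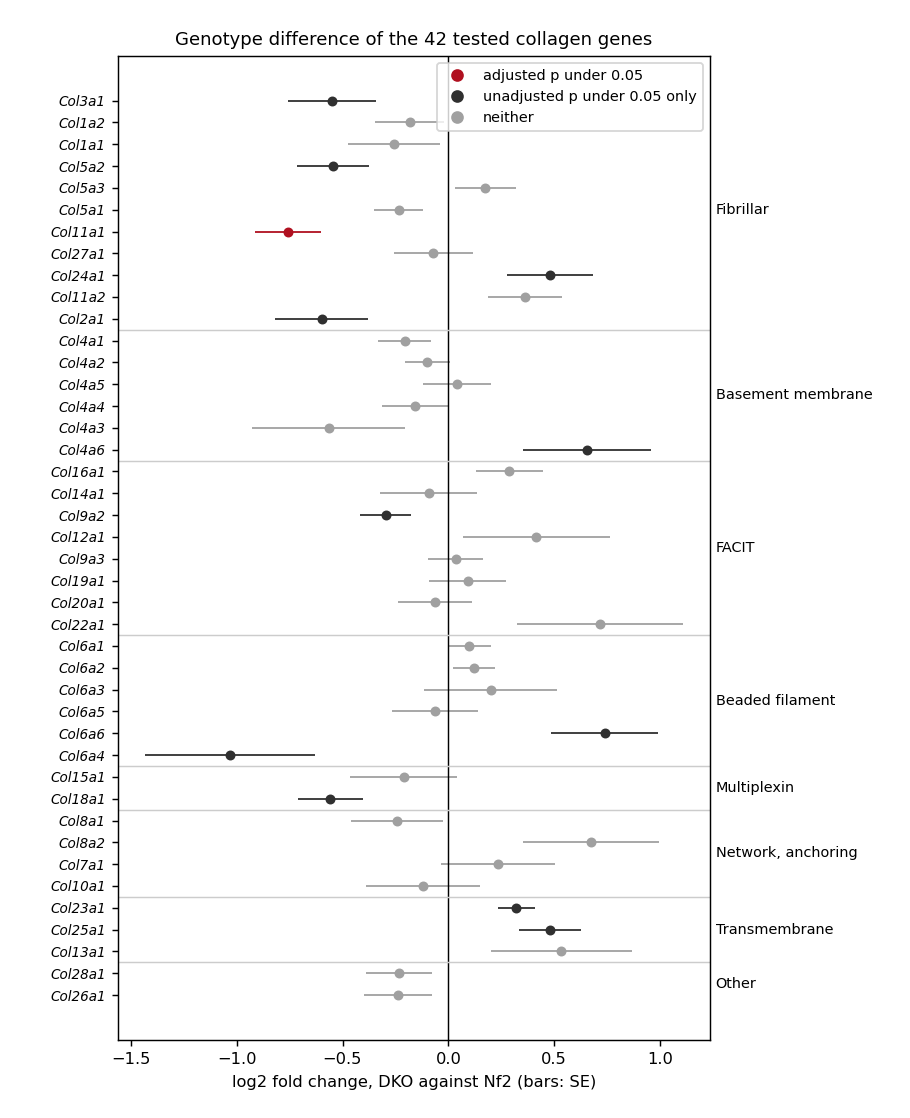
Log2 fold changes of DKO against Nf2 mice with their SE for the 42 tested collagen genes, grouped by class. Col11a1, at -0.76, is the point past an adjusted p of 0.05, and 11 further genes have an unadjusted p under 0.05.

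Col11a1 encodes a chain of type XI collagen, a fibrillar collagen that sits inside heterotypic fibrils and limits their width. It lies on chromosome 3 at 114030540 to 114220718 on the plus strand, and its exons overlap no other annotated gene. Its level ranged from 235 CPM (median 285) to 340 CPM in Nf2 mice and from 115 CPM (median 183) to 221 CPM in DKO mice. All 6 DKO mice lay below the lowest Nf2 mouse, and it was the one collagen gene whose genotypes did not overlap, where 1.95% of all genes did not overlap and 1.04% did so with lower values in DKO mice. The log2 fold change was -0.76 ± 0.16 (SE) at an edgeR adjusted p of 0.0373. Leaving out each mouse in turn kept the fold change between -0.84 and -0.66, but the adjusted p was over 0.05 in 8 of 12 such fits, reaching 0.0949 without Nf2 mouse 918. Without mouse 702, 886, 885 or 917 it was 0.0804, 0.0536, 0.0851 and 0.0837, and without mouse 649, 884 or 1049 it was 0.0545, 0.0705 and 0.0829.

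Beside this result, several lists of cell type markers differed in value between genotypes. All 12 skeletal muscle markers had negative fold changes, with a median of -2.09, and their summed level was 53.3 to 1042 CPM in Nf2 mice and 64.6 to 363 CPM in DKO mice. Pvalb was apart from the rest, with a log2 fold change of -0.29 where the others had -2.66 to -1.59. It alone gave at least 38.8 CPM of the sum in each Nf2 mouse and 41.2 CPM in each DKO mouse. With the muscle level of each mouse as a covariate, the fold change of Col11a1 was -0.83, with an edgeR adjusted p of 0.0634. Macrophage markers had negative fold changes in 10 of 11 genes, with a median of -0.43, and summed to 223 to 330 CPM in Nf2 mice and 187 to 246 CPM in DKO mice. Of 7 tested spinal cord markers all were positive, with a median of 0.55 and sums of 77.7 to 208 CPM against 118 to 331 CPM. None of them passed the threshold. Gfap (means of 41.8 and 98.7 CPM) and Slc1a2 (51.0 and 62.8 CPM) were the highest of them. Mog (1.48 and 2.20 CPM) and Olig2 (0.738 and 0.919 CPM) were low, with log2 fold changes of 0.55 ± 0.53 and 0.29 ± 0.60 (SE). Of 10 fibroblast markers 8 were positive, with a median of 0.32 and sums of 667 to 904 CPM against 540 to 1095 CPM. Endothelial markers were positive in 9 of 10 genes, with a median of 0.21 and sums of 163 to 215 CPM against 192 to 308 CPM, and adipocyte markers were negative in 5 of 5, with a median of -0.29 and sums of 6.60 to 12.97 CPM against 4.16 to 9.85 CPM. Tendon markers were positive in 4 of 4 tested genes, with a median of 0.21. They summed to 21.9 to 30.1 CPM in Nf2 mice and 26.4 to 59.6 CPM in DKO mice. Further medians were 0.17 for perineurial, 0.16 for mural, 0.064 for myelinating Schwann cell, 0.021 for bone and 0.0017 for satellite glia markers. Over all genes the median was 0.0047 and 49.0% had a negative value. Apart from muscle, the part of these lists in the result was not tested. Since Col11a1 is best known from cartilage, cartilage markers were read as well, and 7 of 8 listed genes were in the table. They summed to 39.7 to 69.4 CPM in Nf2 mice and 41.0 to 62.4 CPM in DKO mice. Comp (means of 25.5 and 20.4 CPM) and Hapln1 (19.5 and 22.5 CPM) were the highest of them. Matn1 stayed at or below 0.0473 CPM in every mouse, and Matn3 reached 0.171 CPM in Nf2 and 1.06 CPM in DKO mice. Of the 5 tested cartilage markers 3 were positive and 2 negative, with a median of 0.19. Among the 5, Cnmd, chondromodulin, passed the threshold and was higher in DKO mice without overlap, with a log2 fold change of 1.29 at an edgeR adjusted p of 0.00838.

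Col11a2, which also encodes a chain of type XI collagen, went the other way in value. It ranged from 7.54 CPM (median 11.0) to 15.8 CPM in Nf2 mice and from 11.4 CPM (median 13.8) to 19.6 CPM in DKO mice, with a log2 fold change of 0.36 ± 0.18 (SE) and an edgeR adjusted p of 0.361. The ratio of Col11a1 to Col11a2 counts within a library is free of the scaling of that library. It ranged from 18.4 (median 22.9) to 44.9 in Nf2 mice and from 7.60 (median 11.1) to 16.2 in DKO mice, with no overlap. The difference of -1.16 on the log2 scale gave p = 0.00216 in a two-sided exact permutation test, the smallest p that 924 splits of the mice can give, and 0.0238 after adjustment over the 11 pairs of chains tested. Without mouse 702 the difference was -1.003 and the adjusted p from the exact permutation test was 0.0714.

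Among the major fibrillar chains, Col1a1 and Col1a2, which together build type I collagen, overlapped widely between genotypes. Col1a1 ranged from 233 CPM (median 295) to 330 CPM in Nf2 mice and from 94.4 CPM (median 253) to 338 CPM in DKO mice, and its log2 fold change was -0.26 ± 0.22 (SE; edgeR adjusted p = 0.640). Col1a2 ranged from 483 CPM (median 571) to 618 CPM in Nf2 mice and from 260 CPM (median 555) to 618 CPM in DKO mice, with a log2 fold change of -0.18 ± 0.16 (SE; edgeR adjusted p = 0.657). In both genes mouse 886 was the lowest of all 12 mice. Col3a1, the chain of type III collagen, which forms thin fibrils with type I, ranged from 448 CPM (median 501) to 610 CPM in Nf2 mice and from 148 CPM (median 377) to 482 CPM in DKO mice. Of the DKO mice, 5 lay below the lowest Nf2 mouse and mouse 915 did not. Its log2 fold change was -0.55 ± 0.21 (SE), with an unadjusted p of 0.0189 and an edgeR adjusted p of 0.220. Without mouse 886 the fold changes of Col1a1, Col1a2 and Col3a1 were -0.09, -0.05 and -0.39.

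Type V collagen, which starts fibrils together with type XI, was measured through 3 chains. Col5a2 lies tail to tail with Col3a1 on chromosome 1, with 24614 bases between the genes. It ranged from 238 CPM (median 299) to 330 CPM in Nf2 mice and from 120 CPM (median 195) to 277 CPM in DKO mice. Of the DKO mice, 4 lay below the lowest Nf2 mouse. On the log2 scale the fold change was -0.54 ± 0.17 (SE), the unadjusted p was 0.00683 and it had an edgeR adjusted p of 0.146. By DESeq2's Wald test the adjusted p was 0.0467. Its partner Col5a1 had a log2 fold change of -0.23 ± 0.12 (SE; edgeR adjusted p = 0.371). Col5a3, the chain described from Schwann cells, had 0.17 ± 0.14 (SE; edgeR adjusted p = 0.631).

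Of the fibrillar chains of lower level, Col2a1, the main chain of cartilage fibrils, ranged from 6.49 CPM (median 7.74) to 9.46 CPM in Nf2 mice and from 2.13 CPM (median 5.35) to 7.55 CPM in DKO mice, with 5 DKO mice below the lowest Nf2 mouse. Its log2 fold change was -0.60 ± 0.22 (SE; unadjusted p = 0.0173, edgeR adjusted p = 0.212). Col24a1, a fibrillar chain known from bone, ranged from 19.2 CPM (median 29.2) to 46.5 CPM in Nf2 mice and from 33.3 CPM (median 41.3) to 60.4 CPM in DKO mice. Of the DKO mice, 2 lay above the highest Nf2 mouse and all 6 above the Nf2 mean. The log2 fold change was 0.48 ± 0.20 (SE; unadjusted p = 0.0330, edgeR adjusted p = 0.281). Col27a1, a fibrillar chain of cartilage, had a log2 fold change of -0.07 ± 0.19 (SE). Within the fibrillar class 8 of 11 genes had negative values, where 49.0% of all genes did, with a class median of -0.23.

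**Figure D3:**
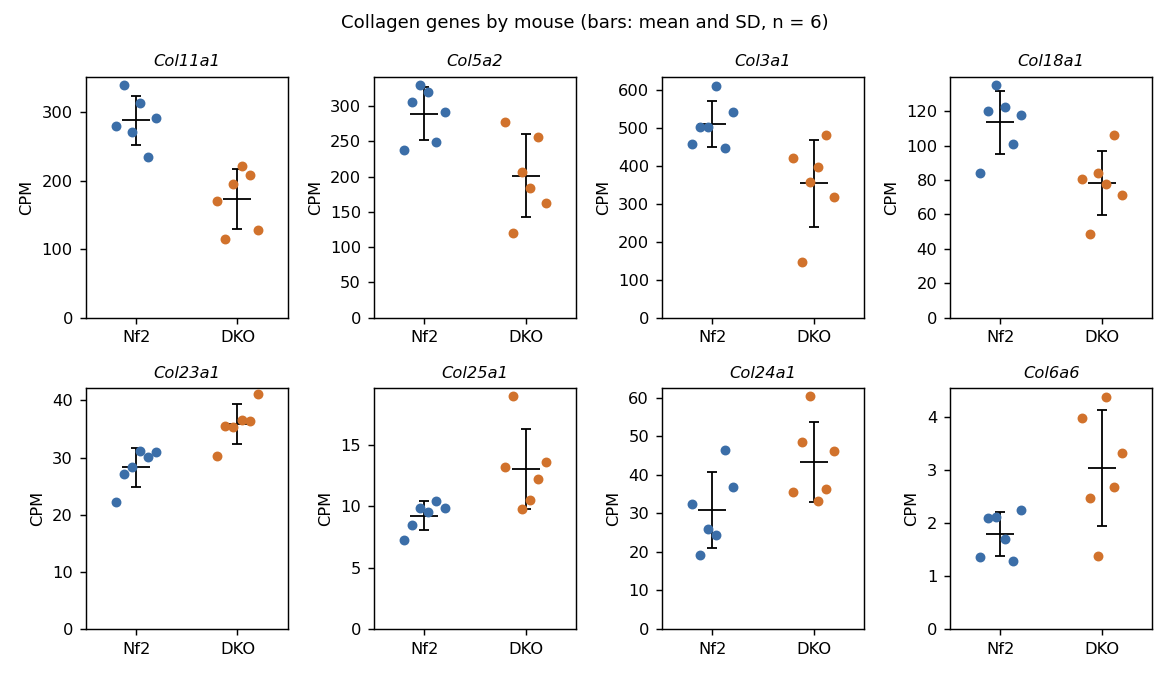
CPM of 8 collagen genes in each mouse, with the mean and SD of 6 mice per genotype on axes that start at 0. Col11a1 is the panel without overlap, with DKO mice at 115 to 221 CPM and Nf2 mice at 235 to 340 CPM, and mouse 886 is the lowest DKO point in Col11a1, Col5a2, Col3a1 and Col18a1.

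The summed level of the 11 fibrillar genes ranged from 2175 CPM (median 2449) to 2664 CPM in Nf2 mice and from 1111 CPM (median 2159) to 2487 CPM in DKO mice. As a share of all collagen counts, fibrillar genes took 60.4% to 66.3% in Nf2 mice against 51.3% to 59.4% in DKO mice, so the genotypes did not overlap. In every other class the shares overlapped, in 3 of them narrowly and with higher values in DKO mice. FACIT genes took 9.31% to 12.0% in Nf2 mice against 11.7% to 16.9% in DKO mice. Beaded filament genes took 2.772% to 3.914% against 3.907% to 6.188%, and transmembrane genes 0.835% to 1.16% against 1.15% to 2.64%. The fibrillar sum includes Col11a1, which did not overlap by itself. Shares of a total are bound to each other, and these are descriptions with no test and no background. The sum over all 44 genes ranged from 3599 to 4349 CPM in Nf2 mice and from 2166 to 4207 CPM in DKO mice, with means of 3940 and 3458 CPM, or 3716 CPM for DKO mice without mouse 886.

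**Figure D4:**
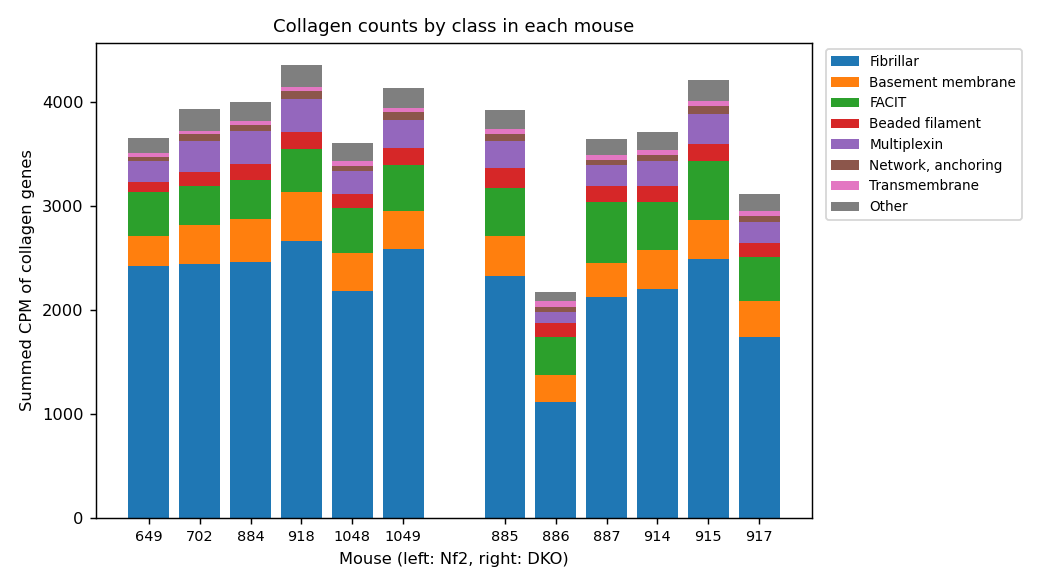
Summed CPM of the collagen genes in each of the 12 mice, stacked by class. Fibrillar genes are the largest class in every mouse, and DKO mouse 886 is the lowest bar at 2166 CPM.

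Mouse 886 was low in fibrillar genes and at an end of the range for several marker lists. Its summed satellite glia markers were the lowest of all 12 mice (5117 CPM) and its myelinating Schwann cell markers the lowest of the DKO mice (7510 CPM, where the lowest Nf2 mouse had 7506 CPM). It had the highest summed level of all 12 mice for fibroblast markers (1095 CPM), perineurial markers (566 CPM), endothelial markers (308 CPM) and tendon markers (59.6 CPM). Its levels of Col1a1, Col15a1 and Col18a1 were 94.4, 50.1 and 48.7 CPM, the lowest of any mouse, whereas Col12a1, Col25a1 and Col8a2 were at 50.6, 19.0 and 12.2 CPM, above all Nf2 mice. Nf2 mouse 649 was the lowest of the 12 in Col12a1 (6.98 CPM), Col6a1 (41.0 CPM) and Col23a1 (22.1 CPM). The part of these marker levels in the collagen levels was not tested.

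The basement membrane chains of type IV collagen did not pass the threshold. Col4a1 ranged from 187 CPM (median 236) to 303 CPM in Nf2 mice and from 150 CPM (median 225) to 240 CPM in DKO mice, with a log2 fold change of -0.21 ± 0.12 (SE; edgeR adjusted p = 0.479). Col4a2 ranged from 87.7 CPM (median 122) to 150 CPM in Nf2 mice and from 93.6 CPM (median 116) to 124 CPM in DKO mice, with a log2 fold change of -0.10 ± 0.11 (SE; edgeR adjusted p = 0.720). These chains assemble with each other in the common basal lamina, and their genes stand head to head on chromosome 8 with 22 bases of overlap. Their count ratio was 1.87 to 2.13 in Nf2 mice against 1.60 to 1.99 in DKO mice, a difference of -0.12 on the log2 scale (exact permutation p = 0.0368, adjusted p = 0.100).

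The remaining type IV chains were sparse. Col4a5 had 4.39 to 8.89 CPM in Nf2 mice and 5.99 to 8.92 CPM in DKO mice, with medians of 7.28 and 6.92 CPM and a log2 fold change of 0.04 ± 0.16 (SE; edgeR adjusted p = 0.936). Col4a6, its head to head neighbour on chromosome X at 1308 bases, had medians of 0.837 and 1.74 CPM, and 4 DKO mice lay above the highest Nf2 mouse while mouse 887 lay below the lowest. The log2 fold change was 0.65 ± 0.30 (SE; unadjusted p = 0.0483, edgeR adjusted p = 0.331), on 10 to 53 counts per mouse. Col4a3 and Col4a4, which start from either side of the 71 bases printed above, had log2 fold changes of -0.56 ± 0.36 (SE) and -0.16 ± 0.16 (SE). The 2 divergent genes were not held to one ratio: Col4a3 to Col4a4 counts ranged from 0.353 to 1.10 in Nf2 mice. Of the exon bases of Col4a3, 5.65% overlap an antisense gene, whose reads cannot be told apart without strand.

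Among the FACIT chains, Col16a1, which associates with fibrils and microfibrils, ranged from 236 CPM (median 260) to 329 CPM in Nf2 mice and from 241 CPM (median 310) to 475 CPM in DKO mice. The log2 fold change was 0.29 ± 0.16 (SE; edgeR adjusted p = 0.432), or 0.14 without mouse 887, and 2 DKO mice lay above the highest Nf2 mouse. Col14a1, which decorates type I fibrils, ranged from 47.2 CPM (median 76.8) to 99.98 CPM in Nf2 mice and from 31.6 CPM (median 81.1) to 95.8 CPM in DKO mice, with a log2 fold change of -0.09 ± 0.23 (SE; edgeR adjusted p = 0.891). Col9a2, a chain of the FACIT collagen of cartilage, had the lowest coefficient of variation of the collagen genes in Nf2 mice (4.18%). It ranged from 17.6 CPM (median 19.0) to 19.9 CPM there and from 11.8 CPM (median 15.2) to 20.98 CPM in DKO mice, where 4 mice lay below and mouse 915 above all Nf2 mice. Its log2 fold change was -0.30 ± 0.12 (SE; unadjusted p = 0.0276, edgeR adjusted p = 0.258). The 5 other tested FACIT genes, Col12a1, Col19a1, Col20a1, Col22a1 and Col9a3, had log2 fold changes from -0.06 to 0.72 and edgeR adjusted p of 0.425 to 0.935. Col22a1, a collagen of the myotendinous junction, and Col14a1 lie 1.17 and 17.68 Mb from Ptk2 on chromosome 15, and Col2a1 lies 24.55 Mb from it.

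None of the chains of type VI collagen passed the threshold. Col6a1 ranged from 41.0 CPM (median 56.8) to 66.4 CPM in Nf2 mice and from 47.3 CPM (median 60.4) to 70.7 CPM in DKO mice, with a log2 fold change of 0.10 ± 0.10 (SE; edgeR adjusted p = 0.709). Col6a2 had medians of 43.6 and 46.9 CPM and a log2 fold change of 0.12 ± 0.10 (SE; edgeR adjusted p = 0.621), and Col6a3 had medians of 36.1 and 32.0 CPM and 0.20 ± 0.31 (SE; edgeR adjusted p = 0.818). Col6a3 ranged from 20.7 to 53.2 CPM in Nf2 mice and from 22.3 to 78.2 CPM in DKO mice. Of the DKO mice, 2 lay above the highest Nf2 mouse in this gene. Col6a1 and Col6a2, which enter the same trimer and lie on the same strand of chromosome 10, moved together from mouse to mouse. Their count ratio stayed between 1.17 and 1.42 in all 12 mice, an SD of 0.09 on the log2 scale, where the SD of log2 CPM was 0.21 for Col6a1 and 0.20 for Col6a2. Col6a1 to Col6a3 was looser, with ratios of 0.736 to 2.69 in DKO mice.

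A row of genes on chromosome 9 encodes chains that can take the place of Col6a3. Col6a6 ranged from 1.28 CPM (median 1.90) to 2.24 CPM in Nf2 mice and from 1.37 CPM (median 3.00) to 4.39 CPM in DKO mice, where 5 mice lay above the highest Nf2 mouse. Its log2 fold change was 0.74 ± 0.25 (SE; unadjusted p = 0.0111, edgeR adjusted p = 0.176). Col6a4 ranged from 0.541 CPM (median 0.611) to 1.06 CPM in Nf2 mice and from 0.0432 CPM (median 0.383) to 0.582 CPM in DKO mice. Its log2 fold change of -1.03 ± 0.40 (SE; unadjusted p = 0.0224, edgeR adjusted p = 0.237) rested on 1 to 25 counts per mouse. Col6a5, which lies between them, had -0.06 ± 0.20 (SE). The neighbours thus had values of opposite sign, none of them past the threshold.

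Both multiplexin chains, collagens of the basement membrane zone, had negative values. Col18a1, whose last domain is released as endostatin, ranged from 84.1 CPM (median 119) to 136 CPM in Nf2 mice and from 48.7 CPM (median 79.4) to 106 CPM in DKO mice, with 5 DKO mice below the lowest Nf2 mouse. On the log2 scale its fold change was -0.56 ± 0.15 (SE), at an unadjusted p of 0.00284 and an edgeR adjusted p of 0.107. DESeq2's Wald test and limma voom gave adjusted p of 0.0209 and 0.0265. Col15a1 ranged from 116 CPM (median 164) to 195 CPM in Nf2 mice and from 50.1 CPM (median 147) to 182 CPM in DKO mice, with a log2 fold change of -0.21 ± 0.25 (SE; edgeR adjusted p = 0.749), or -0.04 without mouse 886. The lowest DKO value in both genes was that of mouse 886. Endothelial markers, which vessels contribute, had positive fold changes in 9 of 10 genes. Of these markers 2 were higher at an unadjusted p under 0.05 in edgeR and none passed the threshold. Of all genes, 6.91% were higher at this mark and 49.0% had a negative fold change. The part of vessels in the values of Col18a1 and Col15a1 was not tested.

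Transmembrane collagens were the class in which every tested gene, 3 of 4 members, had a positive value. Of all genes, 51% had a positive value. Col23a1 ranged from 22.1 CPM (median 29.3) to 31.1 CPM in Nf2 mice and from 30.3 CPM (median 35.9) to 41.2 CPM in DKO mice. Of the DKO mice, 5 lay above the highest Nf2 mouse and mouse 885 lay within their range. DKO mice were thus at a log2 fold change of 0.32 ± 0.09 (SE), at an unadjusted p of 0.00267 and an edgeR adjusted p of 0.105, and DESeq2's Wald test gave 0.0231. Col25a1, a collagen of neurons needed for the innervation of muscle, ranged from 7.24 CPM (median 9.70) to 10.4 CPM in Nf2 mice and from 9.80 CPM (median 12.7) to 19.0 CPM in DKO mice. Its log2 fold change was 0.48 ± 0.15 (SE; unadjusted p = 0.00591, edgeR adjusted p = 0.138), and DESeq2's Wald test gave an adjusted p of 0.0457. Col13a1, a collagen of the neuromuscular junction, had medians of 0.873 and 1.23 CPM and 0.53 ± 0.33 (SE; edgeR adjusted p = 0.491). Beside these values, the 12 sensory neuron markers had a median fold change of -0.0044, with 6 positive and 6 negative. None had an unadjusted p under 0.05 in edgeR. They summed to 8310 to 11408 CPM in Nf2 mice and 8697 to 10287 CPM in DKO mice, and their part in the collagen values was not tested.

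Of the network and anchoring chains, Col8a1 and Col8a2 form the hexagonal lattice of type VIII collagen. Col8a1 ranged from 28.4 CPM (median 50.1) to 61.2 CPM in Nf2 mice and from 23.0 CPM (median 39.3) to 55.8 CPM in DKO mice, with a log2 fold change of -0.24 ± 0.22 (SE; edgeR adjusted p = 0.664). Col8a2 had medians of 4.63 and 7.72 CPM and a log2 fold change of 0.67 ± 0.32 (SE; edgeR adjusted p = 0.349). Their ratio had medians of 9.85 and 5.82, ran from 1.89 to 12.8 in DKO mice, and was lowest in mouse 886. Col7a1, the anchoring fibril chain, had 0.24 ± 0.27 (SE; edgeR adjusted p = 0.738), or 0.02 without mouse 887, and Col10a1, known from hypertrophic cartilage, had -0.12 ± 0.27 (SE) on 7 to 17 counts per mouse. In the last class, Col28a1 ranged from 138 CPM (median 175) to 198 CPM in Nf2 mice and from 83.3 CPM (median 157) to 193 CPM in DKO mice, with -0.23 ± 0.16 (SE; edgeR adjusted p = 0.536). Col26a1 had medians of 6.65 and 6.45 CPM and -0.24 ± 0.16 (SE; edgeR adjusted p = 0.536).

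Of 12 listed pairs of chains that assemble with each other, 11 could be tested, since Col9a1 did not pass the filter, and 1, Col11a1 to Col11a2, passed an adjusted p of 0.05. Col5a1 to Col5a2 had the second smallest p. Its ratio was 0.627 to 0.783 in Nf2 mice against 0.713 to 1.11 in DKO mice, a difference of 0.33 on the log2 scale (exact permutation p = 0.0195, adjusted p = 0.100). Col9a2 to Col9a3 differed by -0.37 (exact permutation p = 0.0433, adjusted p = 0.100) and Col8a1 to Col8a2 by -0.87 (exact permutation p = 0.0455, adjusted p = 0.100). Col1a1 to Col1a2 counts had ratios of 0.462 to 0.549 in Nf2 mice against 0.363 to 0.547 in DKO mice, a difference of -0.12 on the log2 scale (exact permutation p = 0.238, adjusted p = 0.320). The ratios are of counts, so their level also reflects the lengths of both genes. Without mouse 887 the count of pairs past the threshold was 3 and without mouse 885 it was 2, with Col5a1 to Col5a2 at an adjusted p of 0.0476 from the exact permutation test in both. The third pair without mouse 887 was Col8a1 to Col8a2, with a difference of -1.12 at an adjusted p of 0.0119 from the exact permutation test, and without mouse 886 its difference was -0.57.

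**Figure D5:**
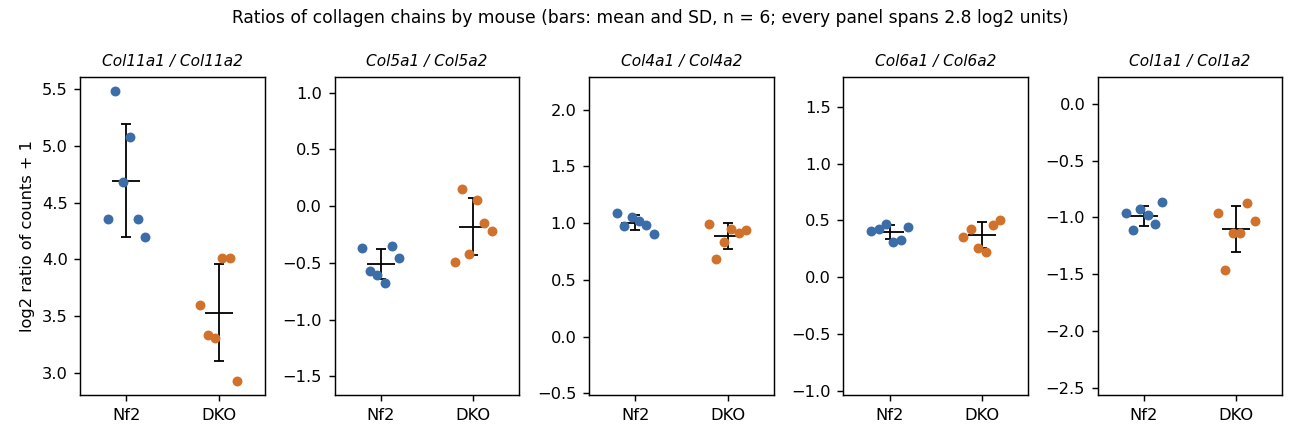
Log2 count ratios of 5 pairs of collagen chains in each mouse, with the mean and SD of 6 mice per genotype; every panel spans the same number of log2 units. Col11a1 to Col11a2 separates the genotypes, at 18.4 to 44.9 in Nf2 mice against 7.60 to 16.2 in DKO mice as plain ratios, and Col6a1 to Col6a2 stays between 1.17 and 1.42.

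The proteins that modify, cut, crosslink and bind collagen were read from 4 further lists. Of 21 enzymes and chaperones of the endoplasmic reticulum, none passed the edgeR threshold, and 5 were lower and 1 higher in DKO mice at an unadjusted p under 0.05, with a list median of -0.03. Over all genes these marks were met by 0.94% (adjusted), 7.96% (lower) and 6.91% (higher). DESeq2's Wald test called 2 of them, P4hb and Ppib, where it called 4.54% of all genes, and limma voom called 2, P4hb and P4ha3, where it called 2.85%. P4hb, protein disulfide isomerase and the shared subunit of the prolyl hydroxylases, ranged from 232 CPM (median 247) to 269 CPM in Nf2 mice and from 203 CPM (median 207) to 231 CPM in DKO mice. The genotypes did not overlap, and the log2 fold change was -0.24 ± 0.06 (SE; edgeR adjusted p = 0.0647). Ppib, cyclophilin B, had -0.25 ± 0.07 (SE; edgeR adjusted p = 0.112), and Plod3, a lysyl hydroxylase, had -0.19 ± 0.06 (SE; edgeR adjusted p = 0.166). Serpinh1, the collagen chaperone HSP47, chosen after its values were seen, ranged from 167 to 251 CPM in Nf2 mice and from 55.4 to 170 CPM in DKO mice, with -0.51 ± 0.21 (SE; edgeR adjusted p = 0.269), or -0.35 without mouse 886.

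Among 13 genes of collagen processing and crosslinking, 1 passed the threshold, where 0.94% of all genes did. DESeq2's Wald test called 2, Loxl2 and Pcolce, a protein that aids procollagen cleavage, where it called 4.54% of all genes, and limma voom called 1, Loxl2, where it called 2.85%. Loxl2, a lysyl oxidase that crosslinks collagen, including type IV, was lower in DKO mice. It ranged from 24.1 CPM (median 30.3) to 36.5 CPM in Nf2 mice and from 15.2 CPM (median 20.99) to 25.6 CPM in DKO mice, so the ranges overlapped at their ends. The log2 fold change was -0.59 ± 0.12 (SE) at an edgeR adjusted p of 0.0411, and the list median was 0.11. Leaving out each mouse in turn kept the fold change between -0.65 and -0.51, but the adjusted p stayed under 0.05 in 2 of 12 such fits, those without mouse 915 or 1048, and reached 0.108 without mouse 917. With the muscle level as a covariate it was -0.56, with an edgeR adjusted p of 0.117. Of 10 tested small leucine-rich proteoglycans, which bind fibrils, none passed, 3 were higher and 1 lower at an unadjusted p under 0.05, and the list median was 0.17. Of all genes, 6.91% were higher and 7.96% lower at this mark. DESeq2's Wald test and limma voom each called 1, Podn. Podn, podocan, had 0.70 ± 0.17 (SE; edgeR adjusted p = 0.0784), Epyc, epiphycan, had -0.70 ± 0.23 (SE; edgeR adjusted p = 0.171), and Fmod, fibromodulin, had 0.96 ± 0.37 (SE; edgeR adjusted p = 0.230), or 0.55 without mouse 886. Of 11 tested collagen receptors none passed, 2 were higher and 2 lower at an unadjusted p under 0.05, beside the same shares of all genes, and the list median was -0.05. Itga10, an integrin chain that binds collagen, had 0.83 ± 0.29 (SE; edgeR adjusted p = 0.185), or 0.45 without mouse 886, Ddr2, a receptor tyrosine kinase for fibrillar collagen, had -0.34 ± 0.13 (SE; edgeR adjusted p = 0.236), and Lair1, an inhibitory receptor of immune cells, had -0.41 ± 0.18 (SE; edgeR adjusted p = 0.295). DESeq2's Wald test and limma voom also called no receptor.

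By labelled sex, with genotype as a covariate, none of the 42 collagen genes passed the edgeR threshold, where 0.0164% of all genes did, and 2 had an unadjusted p under 0.05, where 2.91% of all genes did. Neither DESeq2's Wald test nor limma voom called any. Col24a1 had means of 35.9 and 48.2 CPM in Nf2 and DKO females and 25.9 and 38.6 CPM in Nf2 and DKO males (n = 3 each), a log2 fold change of -0.40 ± 0.18 (SE) for males against females with an edgeR adjusted p of 1.00. Col4a3 had -0.71 ± 0.32 (SE) and Col4a5, which is X-linked, had -0.27 ± 0.15 (SE), both with an edgeR adjusted p of 1.00. Without mouse 702 these 3 values were -0.31, -0.61 and -0.22, and 0 collagen genes had an unadjusted p under 0.05.

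The dependence of the genotype difference on sex gave no collagen gene past the edgeR threshold, where 0.0109% of all genes passed, and 3 at an unadjusted p under 0.05, where 4.78% of all genes met this mark. DESeq2 and voom called none either. In Col14a1, females had 92.7 ± 10.2 CPM in Nf2 and 59.7 ± 25.8 CPM in DKO mice, and males had 60.9 ± 12.8 and 86.2 ± 8.45 CPM (mean ± SD, n = 3). The interaction was 1.08 ± 0.38 (SE) on the log2 scale, as male minus female difference, with an edgeR adjusted p of 0.920. Col23a1 (0.37 ± 0.15, SE) and Col6a2 (0.38 ± 0.17, SE) had the same adjusted p. Without mouse 702 the interactions were 1.23 for Col14a1, 0.41 for Col23a1 and 0.42 for Col6a2, each at an edgeR adjusted p of 0.772, and the 2 remaining Nf2 males had 47.2 and 63.1 CPM of Col14a1. Again 3 genes had an unadjusted p under 0.05 and none passed. For Col11a1 the interaction was 0.08 ± 0.32 (SE), with fold changes of -0.81 in females, -0.72 in males and -0.61 in males without mouse 702, which had edgeR adjusted p of 0.275, 0.375 and 0.553.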

How the data were processed

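The authors deposited raw read counts, as whole numbers for each Ensembl gene in each mouse and not normalized. The submitters' processing notes name Trimmomatic 0.36, STAR 2.5.2b, featureCounts of Subread 1.5.2 and the build GRCm38. The strand setting, the annotation release and the treatment of reads with several matches are not given in the sources used here. RNA was extracted from whole frozen ganglia and sequenced by a commercial provider after poly(A) selection.

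Counts were tested in R 4.3.3 with edgeR 4.0.16 (filterByExpr by genotype, TMM factors, quasi-likelihood F test, two-sided, no covariates) over all 12 mice, and p-values were adjusted by Benjamini-Hochberg over the 18295 genes tested, with a threshold of 0.05. CPM were counts scaled to a library total of 1000000. Exon lengths and coordinates came from GENCODE M21. Ratios of chains were log2 of count plus 1 over count plus 1, compared over 924 splits of the mice in an exact two-sided permutation test. DESeq2 1.42.0 and limma 3.58.1 (voom with sample weights), other scaling and filters, covariates, each sex alone and each mouse left out in turn were the alternatives. Python 3.11.15, pandas 2.3.3, scipy 1.17.1 and matplotlib 3.10.9 served for the tables and plots.

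The collagen genes, their classes, the gene lists and marker lists were chosen with earlier results of these data known. Described in full were genes past the threshold, up to 3 per class with the highest CPM per kb, up to 5 further genes with the smallest p, and genes whose genotypes did not overlap. In the other lists, members past the threshold or otherwise up to 3 with the smallest p were named.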

Additional observations from a re-analysis of the deposited data

Results flagged for a closer look

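Collagen genes, chain ratios, class sums, the other named genes and the marker sums were examined for a single mouse far from the other mice of its genotype. Of 184 groups of 6 mice, 7 held such a mouse, where chance alone gives about 9.2 (5% of groups). No class sum was among the 7, and DKO mouse 886 was the mouse in 5 of them. It had 3.79 CPM of Col22a1, where the next DKO mouse had 1.67 CPM, and 12.2 CPM of Itga10, where the next had 5.196 CPM. It had 51.2 CPM of Plod3 and 55.4 CPM of Serpinh1, where the nearest DKO mice had 62.2 and 139.9 CPM. Its tendon markers summed to 59.6 CPM, where the next DKO mouse had 37.0 CPM. Nf2 mouse 649 had 133.4 CPM of Col27a1, where the next Nf2 mouse had 104.8 CPM, and its satellite glia markers summed to 8266 CPM, where the next had 6830 CPM.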

How the results depend on the processing

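No paired analysis was possible because mice carry individual numbers that no 2 mice share. The count of collagen genes past the threshold between genotypes, 1 in the analysis reported, was 5 with DESeq2's Wald test (Col11a1, Col18a1, Col23a1, Col25a1 and Col5a2, where 4.54% of all genes were called) and 2 with limma voom (Col11a1 and Col18a1, where 2.85% were called). It was 0 with the muscle level as a covariate, 0 in females, 0 in males and 0 in males without mouse 702, an alternative added after seeing the data, and 0 to 1 when each mouse was left out. It was 1 under other scaling factors, other count filters and sex as a covariate. The count of chain ratios past the threshold was 0 to 3 when each mouse was left out. The subsets by sex hold fewer mice, and the cause of the other differences was not tested.

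In males and in males without mouse 702, the log2 fold change was 0.048 and 0.11 for Col4a2, 0.46 and 0.60 for Col14a1, -0.20 and -0.18 for Col6a3, and 0.019 and 0.16 for Col8a1, each of the opposite sign to that in all mice. In males without mouse 702 this also held for Col15a1 (0.075), Col7a1 (-0.23) and Col28a1 (0.086). In females it held for Col4a5 (-0.082), Col6a1 (-0.082) and Col6a2 (-0.071), and with the muscle covariate for Col14a1 (0.13). None of these passed the threshold in all mice. Leaving out single mice gave -0.055 to 0.13 for Col4a5, -0.20 to 0.062 for Col14a1 and -0.057 to 0.34 for Col6a3, and ratio differences of -0.051 to 0.0046 for Col6a1 to Col6a2 and -0.16 to 0.21 for Col6a1 to Col6a3. Of 306 fold changes under alternatives other than leaving out single mice, 282 stayed on the same side of the threshold with the same sign. Genes with few counts, such as Col6a4, Col10a1, Col9a1 and Col17a1, are limited by depth.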

Other observations

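Among the marker lists, Cnmd, chondromodulin, a protein of cartilage and tendon, passed the threshold and was higher in DKO mice, at 2.21 CPM (median 2.90) to 4.40 CPM against 0.938 CPM (median 1.24) to 1.83 CPM in Nf2 mice, with a log2 fold change of 1.29 and an edgeR adjusted p of 0.00838. C1qb, a complement chain made by macrophages, was lower in DKO mice, at 19.5 CPM (median 23.1) to 26.4 CPM against 28.3 CPM (median 38.0) to 45.9 CPM, with a log2 fold change of -0.71 and an edgeR adjusted p of 0.0138. Neither gene overlapped between genotypes. Over all genes, 0.94% passed the threshold and 1.95% did not overlap. Cnmd was 1 of 5 tested cartilage markers and C1qb 1 of 11 tested macrophage markers, and no other marker passed. Of the macrophage markers 10 had negative fold changes, and Cd163 went the other way at 1.48 (edgeR adjusted p = 0.169).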
